A study of Mus musculus with 12 samples.

Results

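The tumour suppressor p53, encoded by Trp53, and 9 genes that it is known to switch on were followed in CD4 T cells of the mouse spleen: Mdm2, Cdkn1a, Ccng1, Plk2, Phlda3, Zmat3, Trp53inp1, Polk and Zfp365. The 10 genes were found by symbol among 15125 loci, of which 13423 carried a gene symbol. Where several loci shared a symbol only the one of highest mean level kept it, which left 12918. Each of the 10 symbols labelled 1 locus from the outset. All 10 were among the 9743 loci that entered the tests, which asked for at least 1 FPKM (fragments counted per kilobase of a transcript and scaled by the fragments mapped in the library) in at least 3 of the 12 libraries. The series concerns T cells with a faulty proteasome, the complex that degrades tagged proteins. Its 4 groups of 3 libraries were activated KIKO cells, activated KI cells, naive KIKO cells and naive KI cells. The genotypes are called just KI and KIKO in the labels, which give neither the altered gene nor the age of the mice. Activated cells had been stimulated for 16 h through CD3 and CD28 by antibody-coated beads, and naive cells had not. Titles of the activated KIKO libraries speak of T cells and leave out CD4, which their tissue label does name. Nothing in the labels says that replicates came from separate animals, so p-values here measure only the spread between these samples, which may be technical.

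p53 is a transcription factor whose amount is set mainly through the protein. Mdm2 is a ubiquitin ligase that marks p53 for destruction by the proteasome, and because Mdm2 is itself a p53 target the pair forms a feedback loop. After DNA damage and other stress p53 accumulates and raises genes that halt the cell cycle, repair DNA or start cell death. The first group includes Cdkn1a, which encodes the kinase inhibitor p21. Mice without p53 develop thymic lymphoma, a cancer of T cell precursors.

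Promoter windows are shown because p53 acts through DNA letters near its targets, and Cdkn1a, Mdm2 and Ccng1 are the members through which that link is best known. The windows come from RefSeq (GRCm38.p6) and run from 250 bases before to 50 bases after an annotated start, written 5′ to 3′ on the gene's strand. Capitals mark each match to the p53 decamer, the 10-letter unit of which a full p53 site holds a pair, and the consensus reads alike on both strands. The windows lie at chr17:29090729-29091028 (+) for the upstream Cdkn1a start, chr17:29093519-29093818 (+) for the downstream Cdkn1a start, chr10:117710709-117711008 (-) for Mdm2 and chr11:40755237-40755536 (-) for Ccng1.
Cdkn1a upstream: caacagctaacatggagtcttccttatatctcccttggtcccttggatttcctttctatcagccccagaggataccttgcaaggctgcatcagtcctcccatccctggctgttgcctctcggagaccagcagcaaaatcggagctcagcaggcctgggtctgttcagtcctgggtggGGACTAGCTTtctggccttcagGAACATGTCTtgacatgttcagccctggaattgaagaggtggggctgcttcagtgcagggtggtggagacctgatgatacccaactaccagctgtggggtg
Cdkn1a downstream: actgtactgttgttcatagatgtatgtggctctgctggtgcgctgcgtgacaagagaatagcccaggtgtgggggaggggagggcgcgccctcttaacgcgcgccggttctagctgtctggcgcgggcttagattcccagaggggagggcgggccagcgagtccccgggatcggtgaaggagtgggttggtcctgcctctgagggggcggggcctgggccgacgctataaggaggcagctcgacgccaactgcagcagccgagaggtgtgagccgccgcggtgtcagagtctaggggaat
Mdm2: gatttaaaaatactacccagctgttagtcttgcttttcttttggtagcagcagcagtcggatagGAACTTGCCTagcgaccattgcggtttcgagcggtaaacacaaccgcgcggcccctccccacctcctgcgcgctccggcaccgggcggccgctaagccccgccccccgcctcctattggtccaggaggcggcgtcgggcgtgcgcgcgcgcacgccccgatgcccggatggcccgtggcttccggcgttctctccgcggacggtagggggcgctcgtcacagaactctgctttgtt
Ccng1: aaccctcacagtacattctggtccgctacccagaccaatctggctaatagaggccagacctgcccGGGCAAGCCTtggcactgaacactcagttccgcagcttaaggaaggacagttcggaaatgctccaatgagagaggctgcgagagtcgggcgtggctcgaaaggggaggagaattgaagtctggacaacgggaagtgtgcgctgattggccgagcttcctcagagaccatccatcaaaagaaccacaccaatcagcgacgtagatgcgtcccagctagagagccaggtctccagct

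RefSeq windows were found for 8 of the 10 members, giving 10 windows, and none was used for Zmat3 or Trp53inp1. At least 1 decamer stood in 5 of the 10 windows, those of Trp53, Mdm2, Ccng1, the upstream start of Cdkn1a and 1 of 2 starts of Polk. Among 32851 mouse promoter windows of the same length, 2745 (8.36%) held at least 1. The upstream Cdkn1a window held 2 decamers, beginning 73 and 51 bases before the start, which counts as a full site when a spacer of up to 13 bases is allowed. The letters directly after the second decamer, tgacatgttc, miss the consensus only by their first letter and stay unmarked, since only exact matches were sought. Which of these letters form a pair used by p53 was not tested. Such a full site stood in 24 windows of all (0.0731%). Matching letters are a description and do not show that p53 was bound, and the p53 sites known in the first intron of Mdm2 lie outside these windows.

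The libraries listed 9771 to 11102 loci each, and KIKO naive 2 listed the fewest transcript events, 77789 against 91360 to 102077 in the others. Genes missing from a library's list were taken as 0, which need not mean that they were silent. Cd4 was listed in all 12 libraries, at 86.4 to 138 FPKM in activated KIKO, 170.7 to 182 in activated KI, 137 to 172 in naive KIKO and 186 to 221 in naive KI cells. The summed level of 7 T cell markers, of which Lck was listed nowhere, was 485 to 733 FPKM in activated KIKO against 1096 to 1277 in activated KI cells, and 876 to 959.9 in naive KIKO against 1127 to 1401 in naive KI cells. KIKO activated 2 and KIKO naive 2 stood apart through transcripts of myeloid cells, with a summed level of 7 myeloid markers of 164 and 202 FPKM against 0.918 to 7.17 in the other 10 libraries. Lyz2, S100a8 and S100a9 made up most of it, while Itgam was at 0 in every library. The same pair of libraries alone listed Gzma, a granule protease gene of killer cells, at 7.57 and 8.01 FPKM. Cd8b1, a CD8 chain gene, was higher without overlap in naive KIKO (12.5 to 16.1 FPKM) than in naive KI cells (6.51 to 8.12 FPKM). The summed level of 5 B cell markers was at most 2.78 FPKM, nearly all of it from Cd79a, with Ms4a1 and Pax5 at 0 throughout. The part that these cells or the lower T cell markers have in the results below was not tested beyond refits without the libraries concerned.

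In activated cells, 9 of the 10 genes were higher in KIKO than in KI, by 0.91 to 3.21 on the log2(FPKM + 1) scale, and Trp53 itself was lower. Of all loci tested, 40.0% differed in this comparison, 20.7% higher and 19.3% lower, by limma with Benjamini-Hochberg adjustment over the 9743 loci. The median difference of the 10 genes was 1.79, against 0.04 over all loci. In every one of the 10 the 3 KIKO values and the 3 KI values did not overlap, which held for 53.9% of all loci (27.9% higher, 26.0% lower). All 10 kept their calls without KIKO activated 2, and also without both KIKO libraries that carried myeloid transcripts, a fit chosen after seeing the data.

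Trp53 RNA stood at 72.1, 81.8 and 64.4 FPKM in the activated KIKO libraries, against 101, 95.2 and 103 FPKM in the activated KI libraries. Every KIKO value lay below every KI value. The difference was -0.46 ± 0.12 (log2 scale, SE, n = 3 each, adjusted p = 0.00847, limma). This call was lost after quantile normalization, where the difference was -0.26 and the adjusted p 0.0801. It was also lost with transcript starts alone, where the difference was again -0.46 but its SE was 0.43 (adjusted p = 0.442, limma). In that fit the activated values were unchanged. KIKO naive 2, which enters the shared estimate of spread, had 7.45 FPKM at the start against a level of 42.0.

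Mdm2 showed the opposite pattern, with 87.0, 99.6 and 60.0 FPKM in activated KIKO against 24.7, 27.3 and 20.0 FPKM in activated KI cells. The lowest KIKO library was thus above the highest KI library. The mean was 82.2 ± 20.3 FPKM in activated KIKO and 24.0 ± 3.70 FPKM in activated KI cells (SD, n = 3 each). The difference was 1.71 ± 0.17 on the log2 scale (adjusted p = 1.62e-05, limma).

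**Figure D1:**
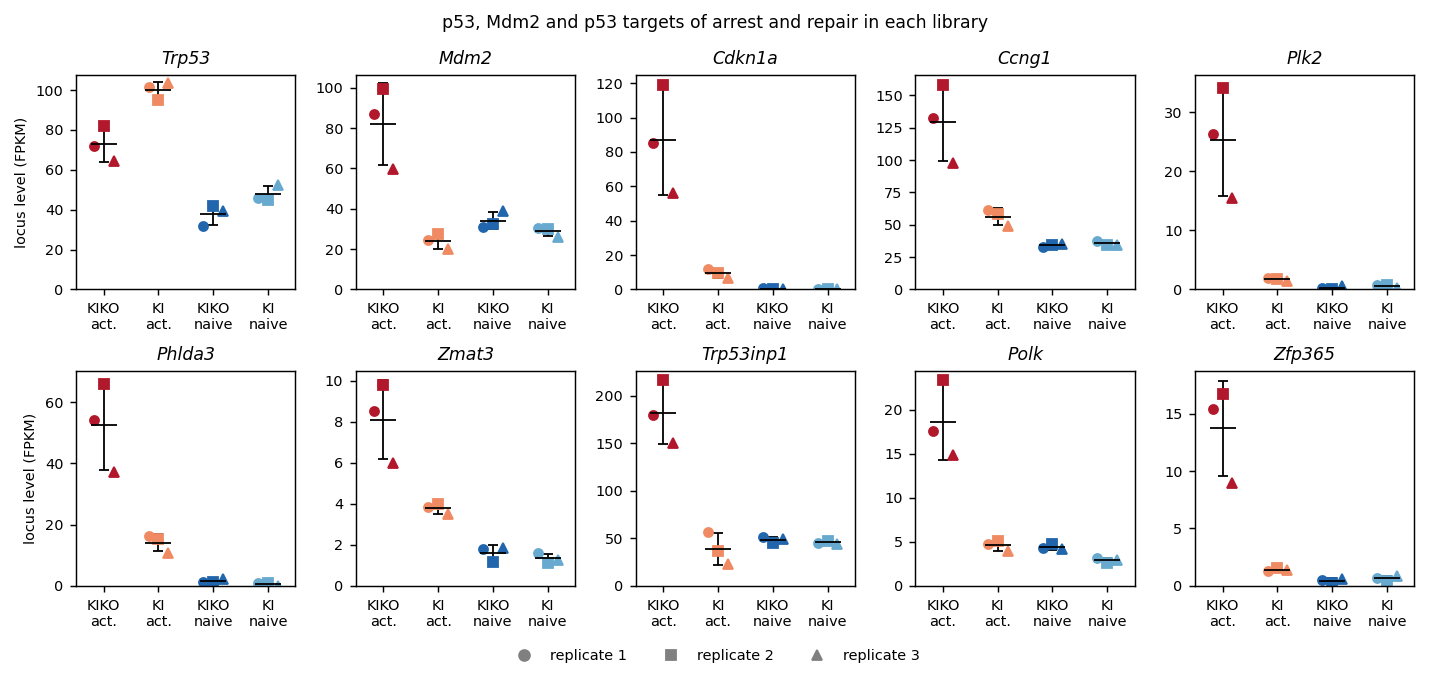
Locus levels in FPKM (linear vertical axes starting at 0, 1 panel per gene) in activated KIKO, activated KI, naive KIKO and naive KI libraries, left to right. Each point is 1 library with its replicate number given by shape, horizontal lines are means and bars are 1 SD (n = 3). In the panel of Cdkn1a the activated KIKO libraries sit between 56.0 and 119 FPKM and the activated KI libraries between 6.73 and 12.1, while for Trp53 the activated KI libraries are the highest.

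Among the genes of arrest, Cdkn1a reached 85.2, 119 and 56.0 FPKM in activated KIKO libraries, against 12.1, 9.69 and 6.73 FPKM in activated KI libraries. The difference was 3.03 ± 0.28 on the log2 scale (adjusted p = 8.95e-06, limma), and the mean level of 86.7 FPKM in KIKO was 9.13 times the 9.50 FPKM in KI. Plk2, a polo-like kinase, had 26.3, 34.2 and 15.5 FPKM in activated KIKO and 1.95, 1.77 and 1.44 FPKM in activated KI libraries. Plk2 thus had the largest difference of the 10, 3.21 ± 0.27 (adjusted p = 4.24e-06, limma). Ccng1, whose product cyclin G1 directs a phosphatase to Mdm2, was already abundant in KI. Its levels were 132, 158 and 97.8 FPKM in activated KIKO and 61.4, 58.2 and 49.1 FPKM in activated KI libraries. The difference was 1.17 ± 0.15 (adjusted p = 7.93e-05, limma), smaller than for Cdkn1a although the levels of Ccng1 were higher in the mean of both groups.

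Trp53inp1, a nuclear p53 cofactor that also acts in autophagy, had the highest level of the 10 in activated KIKO libraries, at 179.9, 216 and 150.2 FPKM. Activated KI libraries held 56.8, 36.3 and 23.4 FPKM, the widest spread of the 10 genes in that group. The difference was 2.27 ± 0.24 (adjusted p = 2.05e-05, limma), and the lowest KIKO library lay well above the highest KI library. Phlda3, an inhibitor of the kinase Akt, had 54.0, 66.0 and 37.2 FPKM in activated KIKO against 16.2, 15.4 and 10.8 FPKM in activated KI libraries. Its groups did not overlap, and the difference was 1.80 ± 0.28 (adjusted p = 0.000369, limma). The call of Phlda3 was lost with a pseudocount of 0.1 in place of 1, where the difference was 1.86 and the adjusted p 0.0578. Zmat3, an RNA-binding zinc finger protein, had the smallest rise, with 8.51, 9.79 and 6.01 FPKM in activated KIKO against 3.84, 3.99 and 3.48 FPKM in activated KI libraries. Zmat3 differed by 0.91 ± 0.18 (adjusted p = 0.00173, limma), with no overlap. Its call was lost with transcript starts alone, at the same difference but an SE of 0.34 (adjusted p = 0.0574, limma).

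Genes of repair and replication rose as well. Polk, the DNA polymerase kappa that copies past damaged bases, stood at 17.7, 23.4 and 14.9 FPKM in activated KIKO and at 4.80, 5.12 and 3.93 FPKM in activated KI libraries. The groups were far apart, with a difference of 1.79 ± 0.15 (adjusted p = 5.25e-06, limma). Zfp365, whose human counterpart ZNF365 is linked to stability of the genome, stood at 15.4, 16.7 and 9.00 FPKM in activated KIKO and at 1.32, 1.54 and 1.36 FPKM in activated KI libraries. Activated KI cells thus held Zfp365 only just above the filter, and the difference was 2.57 ± 0.22 (adjusted p = 5.33e-06, limma).

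In naive cells, none of the 10 genes passed the test between KIKO and KI, where 10.4% of all loci did (6.46% higher, 3.90% lower). Cdkn1a, Plk2 and Zfp365 stayed under 1 FPKM in every naive library and entered the tests only through activated ones. They could hardly pass here, so this count and the median below are descriptions and do not show that naive cells lack a difference. That background of 1009 loci became 58 with the replicate block and 493, 557 and 531 without KI naive 1, 2 and 3. At an unadjusted p under 0.05 there were 3, namely Trp53, Phlda3 and Polk. Such p-values were frequent over all loci, since Phlda3 (unadjusted p = 0.0328, limma) stood only at rank 2153 of 9743 by p. The median difference of the 10 was 0.11, against 0.05 over all loci. Groups did not overlap for 4 genes, with Mdm2, Phlda3 and Polk higher and Trp53 lower in KIKO, and 33.1% of all loci showed no overlap (19.6% higher, 13.5% lower). Trp53 stood at 32.0, 42.0 and 39.4 FPKM in naive KIKO and at 46.1, 45.1 and 52.6 FPKM in naive KI libraries. Its difference of -0.34 ± 0.12 was near that in activated cells but missed the threshold (adjusted p = 0.0871, limma). Trp53 did pass under median-ratio scaling (-0.41, adjusted p = 0.0429), quantile normalization (-0.38, adjusted p = 0.0460), with the largest single event only (-0.46, adjusted p = 0.0229) and without both KIKO libraries numbered 2 (-0.42, adjusted p = 0.0472).

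Polk came nearest to a difference among the targets in naive cells, with 4.30, 4.76 and 4.15 FPKM in naive KIKO against 3.20, 2.57 and 2.89 FPKM in naive KI libraries. All KIKO values lay above all KI values, at a difference of 0.48 ± 0.15 (adjusted p = 0.0700, limma). Polk passed after rescaling to an equal sum (0.56, adjusted p = 0.0327) and when KIKO activated 2 or KIKO activated 3 was left out (adjusted p = 0.0363 and 0.0460). For Mdm2 the levels were 30.9, 32.5 and 38.7 FPKM in naive KIKO and 30.4, 30.1 and 26.1 FPKM in naive KI libraries, closely adjoining ranges. Cdkn1a was close to nothing in naive cells of both genotypes, at 0.708, 0 and 0.501 FPKM in KIKO and at 0.315, 0.0819 and 0 FPKM in KI libraries. Plk2 likewise stayed under 1 FPKM in all naive libraries, at 0.244, 0 and 0.526 in KIKO and 0.734, 0.723 and 0.220 in KI. Zfp365 did so too, at 0.506, 0.212 and 0.609 in KIKO and 0.678, 0.414 and 0.859 in KI (-0.20 ± 0.22). At such levels a difference between genotypes was not detectable. Phlda3 had 1.31, 1.12 and 2.14 FPKM in naive KIKO and 0.932, 0.941 and 0 FPKM in naive KI libraries, where 1 KI library did not list it (adjusted p = 0.148, limma). Ccng1 and Trp53inp1, which naive cells did express, differed by -0.06 ± 0.15 and 0.07 ± 0.24. Zmat3 was low, at 1.82, 1.16 and 1.86 FPKM in naive KIKO and 1.59, 1.13 and 1.28 FPKM in naive KI libraries (0.15 ± 0.18).

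On stimulation of KIKO cells, all 10 genes rose, where 47.3% of all loci changed (25.1% higher, 22.2% lower). The activated and naive values did not overlap in any of the 10, as in 55.9% of all loci (29.3% higher, 26.6% lower). The median difference of the 10 was 1.87, against 0.00 over all loci. Cdkn1a, Plk2 and Zfp365 reached 1 FPKM only in activated libraries and so entered the tests only through them, which makes the count over the 10 a description. Cdkn1a rose by 5.94 ± 0.28 on the log2 scale (adjusted p = 6.39e-08, limma), which ranked it 11th of 9743 loci by p. Phlda3 rose by 4.39, Plk2 by 4.34 and Zfp365 by 3.32, while Trp53inp1, Ccng1, Polk and Zmat3 rose by 1.79 to 1.88. The smallest rises were those of Mdm2 (1.22 ± 0.17, adjusted p = 0.000163) and Trp53 (0.93 ± 0.12, adjusted p = 7.63e-05, limma). Trp53 RNA averaged 72.8 ± 8.74 FPKM in activated KIKO and 37.8 ± 5.22 FPKM in naive KIKO cells (SD, n = 3 each).

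On stimulation of KI cells, 8 of the 10 genes rose, none fell and 2 did not pass the test, where 61.7% of all loci changed (32.2% higher, 29.5% lower). Cdkn1a, Plk2 and Zfp365 entered the tests only through activated libraries, so this count too is a description. Levels were higher without overlap in 8 of the 10, while 69.1% of all loci showed no overlap (35.6% higher, 33.5% lower). The median difference was 0.73, against -0.01 over all loci. Trp53 rose by 1.05 ± 0.12 (adjusted p = 1.01e-05, limma), to 99.96 ± 4.21 FPKM in activated KI against 47.9 ± 4.10 FPKM in naive KI cells. Phlda3 rose by 3.27 ± 0.28 and Cdkn1a by 3.19 ± 0.28, the largest rises of the 10. Zmat3 (1.03), Plk2 (0.82), Ccng1 (0.64), Zfp365 (0.55) and Polk (0.53) rose less. Zfp365 sat at the threshold, with an adjusted p of 0.0469 that went past 0.05 under many of the settings tried, and Plk2 lost its call without KI naive 3 (adjusted p = 0.0731) or KI activated 1 (adjusted p = 0.0548). With transcript starts alone the calls of Trp53 (adjusted p = 0.0519) and Polk (adjusted p = 0.0562) were lost too, and 4 of the 8 kept their calls under every setting that tested them. Mdm2 averaged 24.0 ± 3.70 FPKM in activated KI and 28.8 ± 2.40 FPKM in naive KI cells, a difference of -0.26 ± 0.17 (adjusted p = 0.208, limma). Trp53inp1 averaged 38.8 ± 16.8 FPKM in activated KI and 45.7 ± 1.38 FPKM in naive KI cells, a difference of -0.32 ± 0.24 (adjusted p = 0.265, limma). Without KI activated 1, the highest of its group, Trp53inp1 differed by -0.63 and passed (adjusted p = 0.0104).

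**Figure D2:**
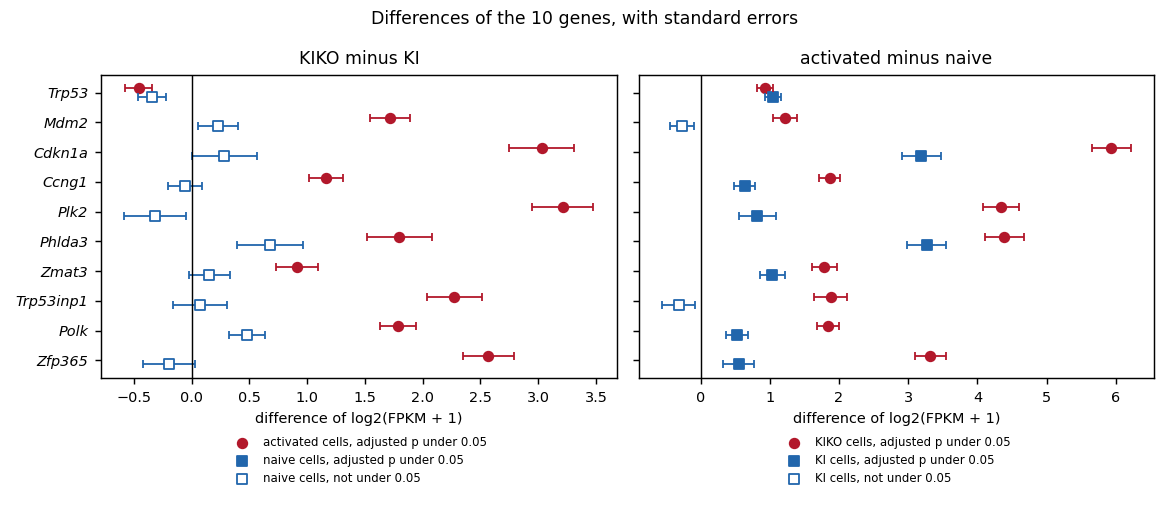
Differences of log2(FPKM + 1) with standard errors for the 10 genes, KIKO minus KI on the left (red, activated cells; blue, naive cells) and activated minus naive on the right (red, KIKO cells; blue, KI cells). Filled marks have an adjusted p under 0.05 and open marks do not. The red marks of 9 genes lie between 0.91 and 3.21 on the left, while all blue marks on that side are open.

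The response to stimulation differed between the genotypes for 7 of the 10 genes, all with a larger response in KIKO, where 20.6% of all loci had a genotype by activation interaction (8.99% higher, 11.6% lower). The interaction is the activation difference in KIKO minus that in KI cells. Its median over the 10 genes was 1.40, against -0.01 over all loci. It was 3.52 ± 0.38 for Plk2 (adjusted p = 0.000250), 2.77 ± 0.31 for Zfp365 (adjusted p = 0.000296) and 2.75 ± 0.40 for Cdkn1a (adjusted p = 0.00104, limma). These 3 genes entered the tests only through activated libraries, so the count of 7 is a description as well. Next came Trp53inp1 with 2.199 and Mdm2 with 1.49, both of which had not passed in KI cells alone, and then Polk with 1.31 and Ccng1 with 1.23. Phlda3 (1.12 ± 0.40, adjusted p = 0.0656) and Zmat3 (0.76 ± 0.25, adjusted p = 0.0547) missed the threshold, and both had an unadjusted p under 0.05. Phlda3 passed without KI naive 3 (adjusted p = 0.0149) or KIKO activated 3 (0.0389), and Zmat3 passed without KIKO activated 3 (0.0199), with equal sums (0.0484) and with no intensity trend (0.0461). The interaction of Trp53 was -0.12 ± 0.17 (adjusted p = 0.667, limma), so a difference in its response was not detectable. With a pseudocount of 0.1 the interaction of Cdkn1a was 2.26 and no longer passed (adjusted p = 0.144). All 7 calls remained without both KIKO libraries numbered 2, with 3.13 for Plk2 and 1.07 for Ccng1.

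The order of the 10 genes by mean level differed between the activated groups. In activated KIKO cells Trp53inp1 led with 182 ± 33.2 FPKM, followed by Ccng1 with 129 ± 30.4, Cdkn1a with 86.7 ± 31.6, Mdm2 with 82.2 ± 20.3 and Trp53 with 72.8 ± 8.74. Neighbours in that order lay within their spread. In activated KI cells Trp53 led with 99.96 ± 4.21 FPKM, ahead of Ccng1 with 56.2 ± 6.38, Trp53inp1 with 38.8 ± 16.8 and Mdm2 with 24.0 ± 3.70, and Cdkn1a came sixth. Trp53 and Ccng1 were separated there by more than their spread.

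Levels relative to Trp53 and Mdm2 are given as ratios within each library, as a description with no test and no share over all loci. Relative to Trp53, all 9 other genes were higher in activated KIKO than in activated KI libraries, with no overlap. This was fixed by the levels, where these 9 were higher and Trp53 lower without overlap, and adds no further support. The ratio of Mdm2 to Trp53 was 1.12 ± 0.162 in activated KIKO and 0.241 ± 0.0465 in activated KI cells (SD, n = 3 each). For Cdkn1a the ratio to Trp53 was 1.17 ± 0.293 in activated KIKO and 0.0953 ± 0.0275 in activated KI cells. Since Trp53 RNA was lower in KIKO, each of these ratios lay further apart than the levels themselves.

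Relative to Mdm2, the other targets split. Cdkn1a (1.04 ± 0.140 in activated KIKO, 0.393 ± 0.0822 in activated KI), Plk2 (0.301 ± 0.0424 in KIKO, 0.0719 ± 0.00688 in KI), Zfp365 (0.165 ± 0.0137 in KIKO, 0.0593 ± 0.00788 in KI) and Polk (0.229 ± 0.0234 in KIKO, 0.193 ± 0.00453 in KI) were higher with no overlap, Polk by the least. Ccng1 was lower, at 1.58 ± 0.0557 in activated KIKO and 2.36 ± 0.194 in activated KI cells, as was Zmat3, at 0.0987 ± 0.00125 in activated KIKO and 0.159 ± 0.0142 in activated KI cells. The ratio of Trp53 to Mdm2 was 0.908 ± 0.144 in activated KIKO and 4.25 ± 0.850 in activated KI cells. Phlda3 overlapped, at 0.634 ± 0.0241 in activated KIKO and 0.587 ± 0.0587 in activated KI cells, and so did Trp53inp1, at 2.25 ± 0.229 in activated KIKO and 1.60 ± 0.608 in activated KI cells. Phlda3 and Mdm2 thus stood in a similar proportion in the activated cells of both genotypes.

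**Figure D3:**
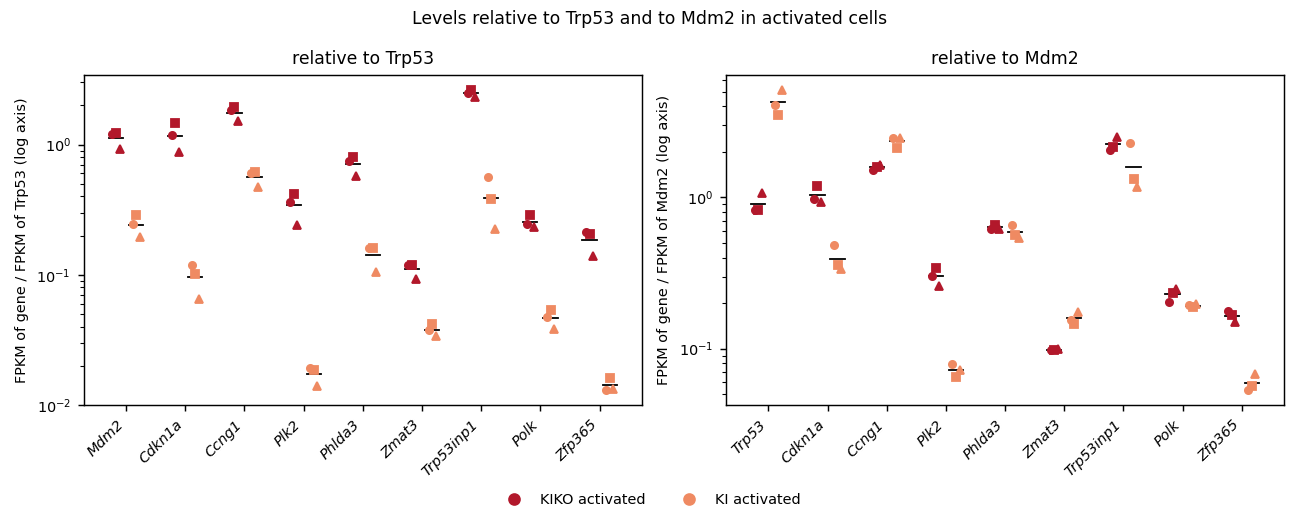
Level of each gene divided by that of Trp53 (left) and of Mdm2 (right) in the same library, on log axes, with activated KIKO libraries in dark red left of activated KI libraries in orange. Shapes give the replicate number and horizontal lines are means of 3. On the left all 9 pairs of groups are apart, and on the right Phlda3 and Trp53inp1 overlap while Trp53, Ccng1 and Zmat3 are lower in KIKO.

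Within the activated KIKO group all 10 genes had their highest value in replicate 2 and their lowest in replicate 3. The same order was seen in 26.9% of 9733 other tested loci, and in 28.9% of the 2012 others called higher in activated KIKO than in KI. All 6 activation genes measured, Cd69, Il2ra, Myc, Tfrc, Nr4a1 and Irf4, shared it too. Replicate 2 is the library with myeloid transcripts, and whether these bear on the order was not tested. Activated KI libraries showed no such single order, with 1 above 2 above 3 in 5 genes and 2 above 1 above 3 in 3.

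The level of Cdkn1a in activated cells lay mainly at 1 transcript start. Coordinates of these starts and exons are those of the files (GRCm39). A 93-bp first exon at chr17:29312743-29312835 on the plus strand, as long as that of the GENCODE transcript Cdkn1a-201, which begins at the downstream start shown above, held 82.7, 115 and 54.1 FPKM in activated KIKO against 11.2, 9.47 and 6.71 FPKM in activated KI libraries. These values are nearly the whole level of the locus. A start further downstream, at chr17:29316874-29317811, gave 2.23, 2.74 and 1.54 FPKM in activated KIKO against at most 0.222 FPKM in activated KI libraries. A 126-bp first exon upstream at chr17:29309950-29310075 never passed 1.63 FPKM. The start of Mdm2 at chr10:117546457-117546619 on the minus strand held 82.5, 81.0 and 59.8 FPKM in activated KIKO and 23.9, 27.1 and 19.7 FPKM in activated KI libraries, so 1 first exon carried most of the level in both.

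Skipping could be measured for 6 exons of Mdm2, Ccng1, Trp53inp1 and Polk, those whose forms with and without the exon summed to at least 1 FPKM in every library. In 3 of these, all groups averaged at most 3.18% without the exon or at least 98.9% without it. The 85-bp exon of Mdm2 at chr10:117545605-117545689, which a longer form extends to 131 bp, was left out of 19.1% ± 5.70 of the signal in activated KIKO and 18.5% ± 7.40 in activated KI cells, and of 13.04% ± 8.39 in naive KIKO and 14.9% ± 3.36 in naive KI cells (SD, n = 3). These ranges overlapped. The 38-bp exon of Trp53inp1 at chr4:11167897-11167934 was left out of 63.6% ± 2.45 in activated KIKO and 58.8% ± 11.3 in activated KI cells, also overlapping. The exon of Ccng1 at chr11:40642267-40642342, which a longer form extends to 79 bp, was left out of 2.72% ± 0.875 in activated KIKO and 3.44% ± 0.196 in activated KI cells, against 0.978% ± 1.69 in naive KIKO and 2.14% ± 0.592 in naive KI cells. The activated KIKO range ended at 3.297% and the activated KI range began at 3.299%, so these groups adjoined without overlap, and activated KI cells lay above naive KI cells. Skipping was not tested and no share over other exons was computed. These non-overlaps are therefore descriptions, and so small a gap between genotypes is not read as a difference.

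Other genes of the pathway moved in part, and their counts in activated cells stand beside the 20.7% of all loci that were higher and the 19.3% that were lower. Of 20 further p53 targets of arrest and repair, 14 were tested, and in activated cells 6 were higher and 1 lower in KIKO, with a median difference of 0.39. Gtse1, a microtubule-bound p53 antagonist, differed by 3.34 ± 0.30 (55.4 ± 18.9 FPKM in activated KIKO, 4.33 ± 0.309 in activated KI) and Sesn2, a stress-induced inhibitor of the growth kinase mTORC1, by 2.99 ± 0.29 (38.0 ± 13.2 in activated KIKO, 3.79 ± 1.02 in activated KI). The repair nuclease gene Ercc5 (1.09) and the stress gene Gadd45a (1.08) rose less, and Fdxr, a mitochondrial electron carrier gene, was lower by -0.79 (adjusted p = 0.00155, limma). Sesn1 (0.53, adjusted p = 0.135), Ddb2 (0.35, adjusted p = 0.192) and Rps27l (0.15, adjusted p = 0.719) did not pass. Of 12 p53 targets of cell death 11 were tested, with 8 higher, none lower and a median of 1.56, among them Bbc3 (1.73), Fas (2.09), Apaf1 (1.75) and Pmaip1 (2.91). In naive cells, Bbc3, which encodes the BCL2 antagonist PUMA, was the single gene of both lists to pass, at 37.2 ± 1.67 FPKM in naive KIKO and 20.3 ± 1.84 FPKM in naive KI cells (0.85 ± 0.12, adjusted p = 0.00156, limma).

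Of 21 regulators of p53, 19 were tested and 4 passed in activated cells, 2 each way, with a median of 0.19, a smaller share than the 40.0% of all loci. Across the settings tried, 1 to 5 were higher and 0 to 3 lower, with 1 in a direction after leaving out any of several single libraries (KI activated 1, 2 or 3, KIKO activated 1, 2 or 3, KI naive 1 and KIKO naive 1). Chek1, a kinase of the replication checkpoint, was lower by -1.45 (1.04 ± 0.383 FPKM in activated KIKO, 4.60 ± 1.42 in activated KI), and the ubiquitin ligase gene Rchy1 was higher by 0.38. The calls of Atr (-0.58) and Trp53bp1 (0.39) were lost under several settings. Mdm4, the partner of Mdm2, differed by 0.12 ± 0.29 (adjusted p = 0.785, limma).

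Cell cycle genes linked to p21 were followed in 2 lists. The first was drawn up by binding of the proteins, which does not place their RNA downstream of p21. Whether Cdkn1a bears on any of these levels was not tested. Of 13 cyclins, kinases and partners bound by p21, 10 were tested, with 7 lower in activated KIKO, none higher and a median of -1.14. Ccnd2 (cyclin D2) stood at 36.7 ± 2.53 FPKM in activated KIKO and 107 ± 6.96 in activated KI cells (-1.51), the DNA clamp gene Pcna at 45.1 ± 3.26 in activated KIKO and 116 ± 25.1 in activated KI cells (-1.33), and Cdk4 and Cdk2 differed by -1.20 and -1.01. Of 17 genes listed as repressed downstream of p21 through the DREAM complex, 12 were tested, with 4 lower, 1 higher and a median of -0.54. The 4 lower became 1 without KI activated 3 or KIKO activated 1, 2 without KI activated 2, 2 with no filter or with equal sums, 1 with a pseudocount of 0.1 and 0 with a mean of at least 5 FPKM, a filter that tests fewer genes, and it was 6 at most, with quantile normalization, the groups of the comparison only or the largest single event. Top2a was lower by -1.60 (1.75 ± 0.660 FPKM in activated KIKO, 7.71 ± 3.69 in activated KI), a call lost with a pseudocount of 0.1 (adjusted p = 0.0569). Mybl2 was higher by 0.36, a call lost under median-ratio scaling, quantile normalization and the replicate block, with the groups of the comparison only, and without KI activated 2, KI activated 3, KIKO activated 2 or KIKO activated 3. Of 3 other inhibitors of cyclin-dependent kinases tested, Cdkn1b was higher (0.70, adjusted p = 0.0375), a call lost under several settings. Activated KIKO cells also held less RNA of some activation genes, with Tfrc at 12.0 ± 2.88 FPKM against 52.3 ± 9.33 in activated KI cells (-2.05), Myc at 35.4 ± 8.34 in KIKO against 101 ± 16.6 in KI (-1.496) and Il2ra at 53.05 ± 12.6 in KIKO against 106 ± 2.11 in KI (-1.01). With a pseudocount of 0.1 the call of Il2ra was lost (adjusted p = 0.315). Cd69 (-0.17), Nr4a1 (0.31) and Irf4 (-0.06) did not pass. In naive cells Cd69, an early surface marker of activation, was higher in KIKO, at 10.3, 9.31 and 11.2 FPKM in naive KIKO against 5.75, 4.97 and 6.36 FPKM in naive KI libraries (0.75 ± 0.18, adjusted p = 0.0198, limma). The call of Cd69 was lost with the replicate block (adjusted p = 0.0803) and without KI naive 1 (0.0598), KI naive 2 (0.0733) or KIKO naive 3 (0.0632). In such bulk libraries fewer cells with a transcript and less of it per cell cannot be told apart.

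Other loci followed the members over the 12 libraries, judged by the root-mean-square difference of log2(FPKM + 1) after centring each locus on its mean, among 8941 named loci. Nearest to Cdkn1a were Phlda3 (0.636), Tnfsf4 (0.679), Atf3 (0.895), Gadd45b (0.923) and Gtse1 (0.952), and Plk2 came 11th (1.03). Nearest to Mdm2 were Carhsp1 (0.163), Slc48a1 (0.192), Rnf169 (0.193), Abhd4 (0.197) and Dennd2c (0.207). From Mdm2, Trp53inp1 came 66th, Polk 120th, Ccng1 252nd and Zmat3 801st, and the other members were far down, with Zfp365 at 5209, Trp53 at 5816, Plk2 at 8372, Phlda3 at 8877 and Cdkn1a at 8924. The measure is not scaled, so it ranks by the size of a change as well as by its pattern. Zfp365, Plk2, Phlda3 and Cdkn1a, like Mdm2, had their highest mean in activated KIKO cells, so a low place alone does not show a different pattern. Their values in KI cells did differ in pattern from those of Mdm2. Activation of KI cells raised Phlda3 by 3.27, Cdkn1a by 3.19, Plk2 by 0.82 and Zfp365 by 0.55, while Mdm2 differed by -0.26 and did not pass.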

How the data were processed

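RNA of 12 libraries was analysed, 3 per group. Per the labels' protocols, poly(A) RNA was taken from 15 ng of total RNA and libraries were made with a stranded TaKaRa SMART-seq kit. Per the submitters' processing notes, FastQC 0.11.9, cutadapt 2.9 and HISAT2 2.2.0 were used, and both GRCm39 and mm10 are named there. Which program computed the values, the sources used here do not say. Each deposited file holds the FPKM of single transcript events in 1 library. FPKM give no read numbers, and they were not whole multiples of a smallest step (values go down to 1e-06), so depth is unknown and no counting interval is given.

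Duplicate events were dropped. The level of a locus was the largest of its summed transcript starts, summed transcript ends and largest single event, and a locus not listed was taken as 0. Coordinates of the files are GRCm39, and only exon lengths were compared with GENCODE M21 (GRCm38). Exon and intron lengths listed for Trp53, Plk2 and Polk all occur in GENCODE for the gene of that name, those of Mdm2, Ccng1 and Trp53inp1 in part. For Zmat3 only 0 of 2 exon lengths and 2 of 8 intron lengths occur there, so its identity rests mainly on the symbol. No lengths were listed for Cdkn1a, Phlda3 and Zfp365. Levels were tested as log2(FPKM + 1) with limma 3.58.1 in R 4.3.3 (4 group means, intensity trend, two-sided), with Benjamini-Hochberg adjustment over 9743 loci and a threshold of 0.05. Fold changes on this scale understate changes of low genes. The 5 comparisons were KIKO against KI in activated and in naive cells, activated against naive in KIKO and in KI cells, and the interaction. The comparisons share groups, so their values are not independent. The test was checked on simulated data.

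The members and lists were chosen with earlier results of these data known. Named were all 10 members, from each list at most 4 called genes of smallest p plus at most 2 called in the opposite direction, the activation genes, the cell type markers, and the 5 loci nearest to Cdkn1a and to Mdm2. Mdm4, Sesn1, Ddb2, Rps27l, Atr, Trp53bp1 and Mybl2 were named after their values were seen or as members against their list. Alternatives were another pseudocount, 2 other filters, 3 scalings, no trend, single pairs of groups, 3 other locus levels, the replicate number as a block, each library left out in turn and both KIKO libraries numbered 2 left out, the last chosen after seeing the data. Python 3.11.15 with pandas 2.3.3 built the tables.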

Additional observations from a re-analysis of the deposited data

Results flagged for a closer look

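The response to activation differed between KIKO and KI cells for 7 genes by the interaction test of limma, as differences of log2(FPKM + 1): Mdm2 (1.485), Cdkn1a (2.748), Ccng1 (1.227), Plk2 (3.524), Trp53inp1 (2.199), Polk (1.312) and Zfp365 (2.765). Each was larger in KIKO cells. Of all loci tested 20.6% had such an interaction, 8.99% of them higher and 11.6% lower as shares of all loci. Cdkn1a, Plk2 and Zfp365 entered the tests only through activated libraries, and Cdkn1a lost its call with a pseudocount of 0.1 (adjusted p = 0.144, limma). For Mdm2 and Trp53inp1 activation brought a rise in KIKO cells of 1.22 and 1.88, and a difference of -0.26 and -0.32 that did not pass the test in KI cells.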

How the results depend on the processing

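Members called numbered 10 in activated cells (10 in each leave-one-out fit, 7 to 10 under other settings), 10 for KIKO activation (10, and 8 to 10), 8 for KI activation (7 to 8, and 5 to 8, with 5 for transcript ends only) and 7 for the interaction (7 to 9, and 6 to 8). In naive cells the count of 0 became 1 with median-ratio scaling, quantile normalization, rescaling to an equal sum, the largest single event only or without both KIKO libraries numbered 2, and 0 to 1 with single libraries left out. Part of the lower counts came from members that a setting no longer tested: Zfp365 and Zmat3 with a mean of at least 5 FPKM, Cdkn1a and Zmat3 with transcript ends only, and Trp53inp1 with transcript starts only. Signs turned in 5 values, none called: the interaction of Trp53 became 0.12 (quantile normalization), 0.66 (transcript starts only) and 0.0027 (largest event only), Ccng1 in naive cells 0.035 (equal sum) and Zmat3 in naive cells -0.22 (transcript starts only). The cause was not tested.

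The replicate number as a block gave 10, 0, 10, 7 and 7 members in activated cells, naive cells, KIKO activation, KI activation and the interaction. Deviations of same-numbered libraries from their group means correlated at -0.03 to 0.12, and every library correlated best with its own number between the KI groups but not in all pairs of groups. Pairing by number was therefore not shown, which does not exclude it, and both KIKO libraries numbered 2 share the myeloid transcripts. The KIKO libraries numbered 1 likewise shared low levels of 4 markers of red blood cells. Their sum was 1.52 FPKM in KIKO activated 1 and 1.56 FPKM in KIKO naive 1, against at most 0.158 FPKM in any other library. With the block 58 loci were called in naive cells, against 1009 without it. That count was 493 to 557 without one KI naive library, and 553 with transcript ends only. Transcript ends only also gave 2309 loci in activated cells in place of 3898, 2746 for KIKO activation in place of 4609, 3583 for KI activation in place of 6013 and 1114 for the interaction in place of 2010.

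Rescaling to an equal sum moved the median of all loci from 0.04 to 0.15 in activated and from 0.05 to 0.13 in naive cells. The share of called loci that were higher in naive KIKO cells was 62.3%. It was 44.2% under median-ratio scaling, 49.4% after quantile normalization and 81.0% with equal sums. In activated cells it was 51.8%, and 64.9% with equal sums.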
